A study of Homo sapiens with 9 samples.

Results

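tRNA modification enzymes are the proteins that alter the bases and riboses of transfer RNAs after transcription. They were collected here as the protein-coding genes whose symbols belong to families that include the TRMT, TRMU, ADAT, ELP, CTU, QTRT, NSUN, PUS, DUS, TYW and ALKBH (ALKBH1 and ALKBH8) genes. The rule found 49 of the 57766 genes of the expression table and used no measured value. Of these, 48 reached at least 1 RPKM (reads scaled to gene length and library size) in at least 3 libraries and were tested, and NSUN7 was listed at 0 in 8 of 9 libraries and at 0.01 RPKM in depleted replicate 2.

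HEK293 Freestyle cells are a human embryonic kidney line grown in suspension, and all groups were the same line, and the labels give no genetic change. They were cultured for 36 h in Freestyle medium depleted of Zn(II) (depleted), in that depleted medium after Zn(II) was restored (repleted), or in untreated Freestyle medium (full). All groups shared a preculture of at least 18 h in Freestyle medium, PBS washes of the cells, and a wash with EDTA and then PBS that the protocol gives at the plating step. There were 3 libraries of polyadenylated RNA per group, described in the labels as biological triplicates, and 9 in all. As a single transformed line in culture, the cells cannot speak for tissue. Polyadenylated mRNA was measured, not tRNA or its modifications.

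A tRNA receives its modifications in stages. Modifications of the core and arms, such as methylations, pseudouridine and dihydrouridine, shape the fold. Those at the wobble base of the anticodon and its neighbour set how codons are read. Several of the enzymes depend on metals: the adenosine deaminases of the ADAT family hold zinc in their catalytic site, the queuosine transferase subunits QTRT1 and QTRTD1 bind structural zinc, and other members hold zinc or iron.

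The libraries were compared as deposited. Over the 15774 tested genes (genes are not independent replicates), Pearson's r was 0.936 to 0.941 when a depleted library was paired with one of another medium, between 0.982 and 0.986 for repleted with full libraries, and between 0.983 and 0.987 within groups. The table holds no read counts, and the spacing of its low values gave estimated depths between 16900000 and 23300000 reads, as estimates only. Of 8 markers of HEK293 cells, 7 had a row that was used, and each averaged at least 1 RPKM over the 9 libraries. Their summed level was 844 to 866 RPKM in depleted, 823 to 850 in repleted and 840 to 855 in full libraries. In depleted against full medium limma called KRT8, KRT18, LIN28B and PAX2 lower and VIM and GATA3 higher. PAX2 averaged 0.6 ± 0.205 RPKM in depleted, 3.02 ± 0.187 in repleted and 3.29 ± 0.315 in full medium (limma adjusted p = 8.7e-06 against full), and the part of these changes in the results below was not tested. Of 9 markers of other cell types, 8 had a row, and LUM alone averaged at least 1 RPKM. The summed level of the 8 was 4.77 to 5.25 RPKM in depleted, 6.65 to 8.01 in repleted and 9.36 to 10.6 in full libraries. HBB was at 0 in all libraries, and the part of LUM in the results below was not tested. Metallothionein MT1X, a zinc-induced gene that serves as a check of zinc status, had 1.71, 2.48 and 1.16 RPKM in depleted, 70.4, 70 and 56.4 in repleted and 152, 163 and 139 in full libraries. The zinc-depleted libraries were thus lowest, and the repleted libraries lay below the full ones.

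As a group the tRNA modification enzymes kept nearly the same share of the transcriptome and changed individually in both directions. Their share of the length-weighted RPKM sum was 0.229% to 0.235% in depleted, 0.236% to 0.241% in repleted and 0.232% to 0.241% in full libraries. In depleted against full medium, limma called 35 of the 48 tested members at an adjusted p under 0.05, 19 higher and 16 lower. Among all tested genes, the calls came to 60.9%, with 29.8% higher and 31.2% lower, which is not far from the members' shares. In bulk RNA, fewer cells of a type and less RNA per cell cannot be told apart. The median log2 change of the members was 0.06, against 0.00084 over all genes, and the median absolute change was 0.27, against 0.36. Of the members, 36 had depleted and full libraries that did not overlap, against 67.6% of all genes. Called changes of at least 2-fold in mean RPKM were made in 7 members, 1 higher (TRMT10A) and 6 lower (DUS1L, ALKBH8, ADAT2, TYW3, NSUN4 and TRMT10B), against 16.8% of all genes, 5.61% higher and 11.2% lower.

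**Figure D1:**
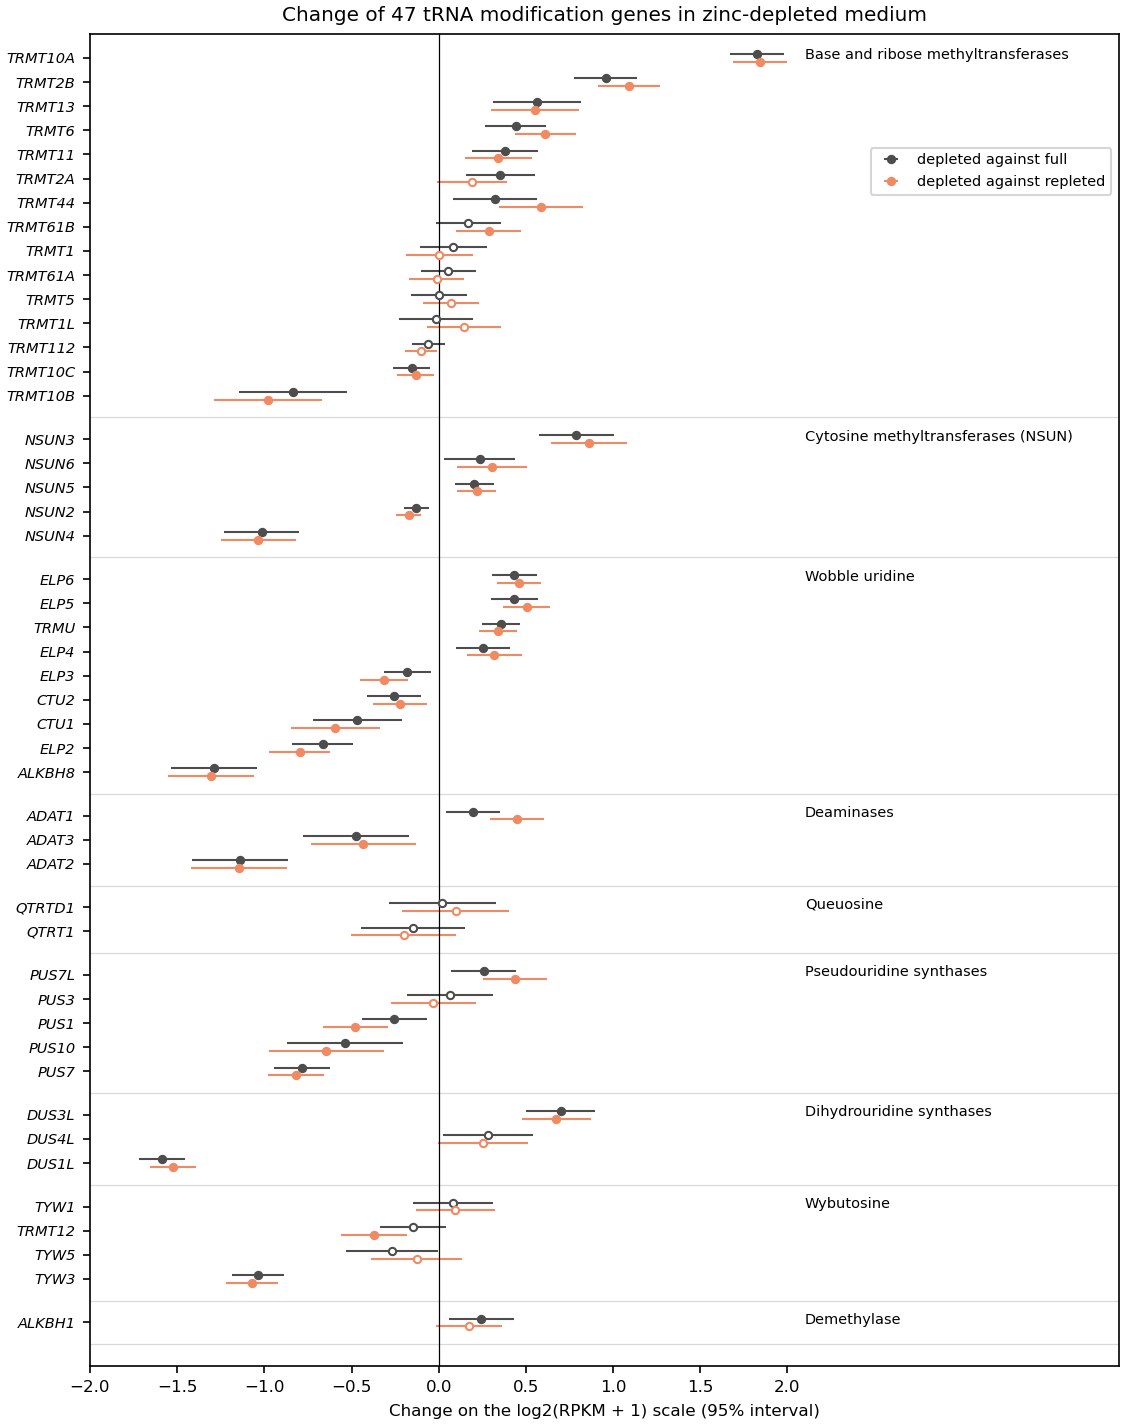
Log2 changes of 47 tested members (x axis, log2(RPKM + 1) scale) with 95% intervals from limma, arranged by role. Grey points give depleted against full and orange points depleted against repleted medium, filled where the adjusted p was under 0.05. TRMT10A stands alone on the right at 1.83, and DUS1L (-1.59) and ALKBH8 (-1.29) lie farthest left.

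Depletion and repletion were set beside each other through both comparisons, which share the depleted libraries. Against repleted medium limma called 34 members, 17 higher and 17 lower, where 60.7% of all genes were called, 29.5% higher and 31.2% lower. Of the members, 35 had depleted and repleted libraries that did not overlap, against 65.2% of all genes. Called changes of at least 2-fold were made in 8, 2 higher (TRMT10A and TRMT2B) and the same 6 lower, against 16.4% of all genes, 5.37% higher and 11.1% lower. Members called in 1 of these comparisons only are not shown to differ between them, and their values stand side by side below. Repleted against full medium had 0 members called by limma, where 0.0317% of all genes were called. At an unadjusted p under 0.05 there were 4, against 7.76% of all genes, namely ADAT1 and TRMT44 lower and PUS1 and TRMT12 higher. Of the members, 3 had repleted and full libraries that did not overlap, against 12.4% of all genes. The members' log2 changes lay between -0.27 and 0.22 there, against -1.59 and 1.83 in depleted against full medium.

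**Figure D2:**
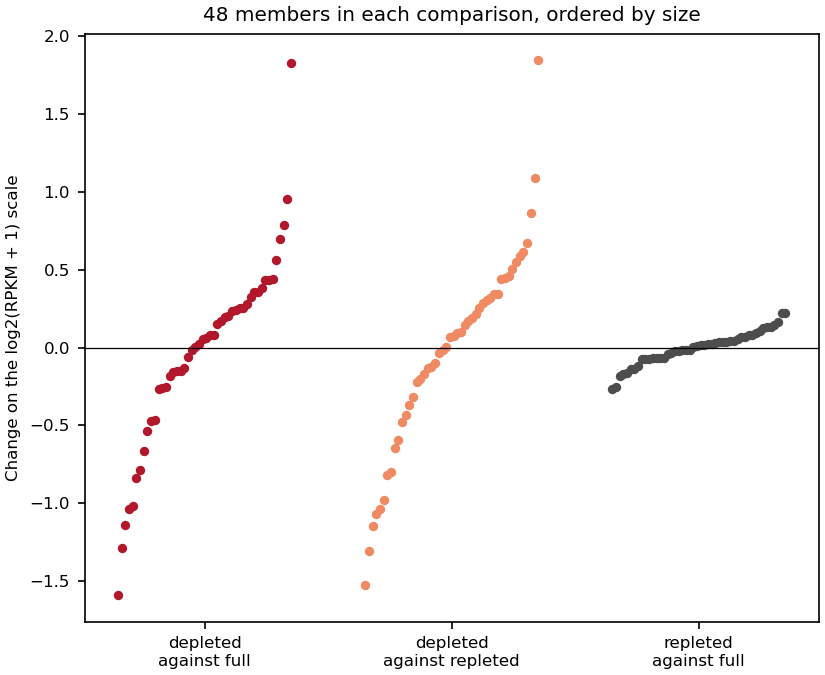
Log2 changes of the 48 tested members in the 3 comparisons (y axis, log2(RPKM + 1) scale), each comparison sorted by size. The 2 comparisons with depleted medium reach from -1.59 to 1.83 and from -1.52 to 1.84, while repleted against full medium stays between -0.27 and 0.22.

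In some enzyme families, paralogs moved in opposite directions in depleted medium, where 29.8% of all genes were called higher and 31.2% lower against full medium. The pairs below were picked for their opposite changes, so the contrast within each pair was set by the choice. For 3 of these, the sequences before the start sites of a rising and a falling member are shown here to be set beside those changes. They come from RefSeq (GRCh38.p14), which is a later build than that of the expression values, and give the 250 bases before the first listed start, 5′ to 3′. TRMT10A, DUS3L and NSUN3 rose, and TRMT10B, DUS1L and NSUN4 fell. Capitals mark a match to the core of the metal response element, to which the zinc sensor MTF1 binds in metallothionein promoters.
TRMT10A (chr4:99564040-99564289, minus strand): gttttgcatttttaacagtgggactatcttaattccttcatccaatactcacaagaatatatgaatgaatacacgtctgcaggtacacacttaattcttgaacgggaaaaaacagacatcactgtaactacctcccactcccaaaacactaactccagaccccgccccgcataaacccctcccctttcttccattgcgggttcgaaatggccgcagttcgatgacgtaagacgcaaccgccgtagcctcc
TRMT10B (chr9:37753555-37753804, plus strand): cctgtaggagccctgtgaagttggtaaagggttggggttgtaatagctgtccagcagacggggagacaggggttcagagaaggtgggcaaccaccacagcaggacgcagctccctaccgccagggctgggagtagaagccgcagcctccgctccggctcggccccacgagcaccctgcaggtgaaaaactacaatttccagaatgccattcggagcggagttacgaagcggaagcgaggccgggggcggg
DUS3L (chr19:5791164-5791413, minus strand): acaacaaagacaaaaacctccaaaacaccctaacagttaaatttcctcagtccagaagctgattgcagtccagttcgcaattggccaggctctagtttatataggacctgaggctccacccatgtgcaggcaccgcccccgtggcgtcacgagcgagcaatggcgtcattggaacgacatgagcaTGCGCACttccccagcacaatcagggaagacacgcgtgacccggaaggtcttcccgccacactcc
DUS1L (chr17:82065805-82066054, minus strand): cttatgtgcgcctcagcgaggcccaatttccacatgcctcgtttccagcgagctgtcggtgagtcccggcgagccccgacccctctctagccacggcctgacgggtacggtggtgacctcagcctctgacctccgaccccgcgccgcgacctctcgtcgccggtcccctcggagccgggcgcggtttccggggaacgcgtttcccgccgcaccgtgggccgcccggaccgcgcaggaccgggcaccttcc
NSUN3 (chr3:94062811-94063060, plus strand): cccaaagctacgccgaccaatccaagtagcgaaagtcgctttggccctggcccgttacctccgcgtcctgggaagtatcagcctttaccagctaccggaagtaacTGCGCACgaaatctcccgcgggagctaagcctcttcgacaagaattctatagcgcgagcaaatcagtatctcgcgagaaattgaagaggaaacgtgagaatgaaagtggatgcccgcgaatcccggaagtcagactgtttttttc
NSUN4 (chr1:46340557-46340806, plus strand): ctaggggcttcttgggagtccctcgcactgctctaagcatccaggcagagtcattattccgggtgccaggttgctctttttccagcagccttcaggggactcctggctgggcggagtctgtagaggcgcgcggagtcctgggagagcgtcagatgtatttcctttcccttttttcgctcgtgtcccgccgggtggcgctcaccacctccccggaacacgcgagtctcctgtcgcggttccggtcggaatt

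Both strands were searched for 3 kinds of letters. The core of the metal response element (TGCACNC or TGCGCNC) matched 1 site each in the windows of DUS3L and NSUN3 and none in the other 4, although a further listed start of NSUN4 holds one. It was in 20 of the 54 windows listed for the 41 members in the RefSeq table, against 8719 of all 35116 windows (24.8%). Those windows belong to 16 members, whose calls in depleted against full medium went every way. ADAT1, DUS3L, ELP4, ELP5, ELP6, NSUN3, TRMT6 and TRMU were called higher, and ADAT3, CTU1, NSUN4 and PUS10 lower. TRMT112, TRMT1L, TRMT61B and TYW1 were not called, and a link of the core with direction was not tested. The amino acid response element that binds ATF4 (TGATGNAA) was in 0 of the 54 windows, against 3.14% of all, and the cyclic AMP response element (TGACGTCA) in 4 of 54, in ADAT1, CTU2, ELP5 and TRMT44, against 1.65% of all. Windows of one gene can overlap, and these matches are descriptions, not sites.

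Of 15 genes grouped as base and ribose methyltransferases, 7 rose, 2 fell and 6 did not pass the test in depleted against full medium. The group holds the activator TRMT112 and also TRMT5, which acts beside the anticodon. Its share called in all was near that over all genes (60.9%). The split by direction was not near that over all genes (29.8% higher and 31.2% lower), a difference that was not tested. TRMT10A (ENSG00000145331), which methylates a guanosine in the core of cytosolic tRNAs, had 34.5, 38.5 and 38.8 RPKM in depleted, 9.72, 8.98 and 10.3 in repleted and 9.34, 9.77 and 10.2 in full libraries. All depleted libraries were above all others, and the repleted and full libraries overlapped. The level was 3.81-fold that in full medium (37.3 ± 2.41 against 9.78 ± 0.45 RPKM, SD, n = 3 each; log2 1.83, SE 0.07, limma adjusted p = 4.42e-08) and 3.86-fold that in repleted medium (limma adjusted p = 4.07e-08).

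Its paralogs did otherwise. TRMT10B (ENSG00000165275) had 1.58, 1.24 and 1.35 RPKM in depleted, 3.27, 4.62 and 3.33 in repleted and 3.48, 2.79 and 3.55 in full libraries. It fell 2.36-fold against full medium (log2 -0.84, SE 0.14, limma adjusted p = 0.00055), with no overlap between groups, from a low level. TRMT10C, a subunit of the mitochondrial ribonuclease that trims tRNA ends, averaged 40.5 ± 1.5 RPKM in depleted, 44.5 ± 2.14 in repleted and 45.2 ± 1.02 in full medium. Each mean here and in the following is given ± SD with n = 3 libraries. The fall of TRMT10C (log2 -0.15, limma adjusted p = 0.0171) was not stable: median centring gave an adjusted p of 0.0687, and it was lost without depleted replicate 3 (0.0656), full replicate 1 (0.0552) or full replicate 2 (0.05). Against repleted medium its adjusted p of 0.0343 was 0.154 with median centring and was lost without depleted replicate 2 (0.055) or 3 (0.121) or repleted replicate 2 (0.112) or 3 (0.0889).

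TRMT2B (ENSG00000188917), the mitochondrial enzyme for methyluridine, had 32.1, 29.2 and 29.9 RPKM in depleted, 12.8, 13.9 and 14.7 in repleted and 14.2, 17.1 and 14.4 in full libraries. The depleted libraries were all above the rest, 1.998-fold the mean of full medium (log2 0.96, SE 0.08, limma adjusted p = 6.01e-06) and 2.21-fold that of repleted medium. Its cytosolic paralog TRMT2A, which forms methyluridine of the T loop, averaged 68.9 ± 6.73 RPKM in depleted, 60.2 ± 5.42 in repleted and 53.6 ± 4.47 in full medium. It rose against full medium (log2 0.35, limma adjusted p = 0.00649) and was not called against repleted medium (limma adjusted p = 0.0885), where it was called with median centring (0.0295), with the replicate block (0.0484), and without depleted replicate 3 (0.0302) or repleted replicate 1 (0.036). In the annotation of GRCh38, 9.92% of the exonic bases of TRMT2A overlap RANBP1 on the other strand, and the sources used here do not give the strand setting of the counting. RANBP1 averaged 589.5 RPKM in depleted, 552.4 in repleted and 555.6 in full medium, and its part in the TRMT2A values was not tested.

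The 2 subunits of the enzyme for methyladenosine of the T loop were not alike. TRMT6 (ENSG00000089195), the tRNA-binding partner, had 33, 30.3 and 30.8 RPKM in depleted, 21.6, 18.1 and 20.9 in repleted and 23, 21 and 24.5 in full libraries. It rose 1.37-fold against full medium (log2 0.44, SE 0.08, limma adjusted p = 0.000798) and 1.55-fold against repleted medium. The catalytic subunit TRMT61A averaged 9.57 ± 0.121 RPKM in depleted, 9.67 ± 0.505 in repleted and 9.19 ± 0.747 in full medium (log2 0.06 against full, 95% interval -0.1 to 0.22, limma adjusted p = 0.517). TRMT61B, a mitochondrial methyladenosine enzyme, averaged 11.1 ± 1.17 RPKM in depleted, 8.9 ± 0.439 in repleted and 9.74 ± 0.52 in full medium. Its log2 change against full medium was 0.17 (limma adjusted p = 0.102), called without depleted replicate 3 (0.0249) and with median centring (0.0472). It was higher than in repleted medium (log2 0.29, limma adjusted p = 0.0133), a call lost without depleted replicate 2 (0.0529), and 22.9% of its exonic bases overlap SPDYA on the other strand, whose mean was 0.456 RPKM.

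TRMT13 (ENSG00000122435), a ribose methyltransferase of the acceptor stem, had 21.7, 20.5 and 18.8 RPKM in depleted, 12.5, 15.1 and 13.2 in repleted and 13.5, 15.8 and 11.4 in full libraries. It rose 1.5-fold against full medium (log2 0.56, SE 0.11, limma adjusted p = 0.00181), with all depleted libraries above the rest. TRMT11, which methylates guanosine with TRMT112 as its partner, averaged 17.9 ± 0.35 RPKM in depleted, 13.9 ± 1.85 in repleted and 13.5 ± 0.771 in full medium, a rise against full medium (log2 0.38, limma adjusted p = 0.0035). TRMT112, the shared activator of TRMT11 and ALKBH8, was among the highest members and averaged 189 ± 1.97 RPKM in depleted, 204 ± 10.6 in repleted and 197 ± 7.22 in full medium (log2 -0.06, 95% interval -0.15 to 0.03, limma adjusted p = 0.244). Against repleted medium it was called lower with the replicate block (limma adjusted p = 0.0488) and without repleted replicate 2 (0.0144), but not otherwise (0.0566 with all libraries). On the other strand ESRRA, at 30.8 RPKM in depleted and 19.6 in full medium, overlaps 17.5% of its exonic bases. TRMT44, whose yeast counterpart methylates the ribose of a uridine, averaged 10.9 ± 0.178 RPKM in depleted, 6.98 ± 1.21 in repleted and 8.55 ± 0.811 in full medium. Its rise against full medium (log2 0.32, limma adjusted p = 0.026) was lost without any 1 of depleted replicates 1, 2 or 3 or full replicates 1 or 3 (0.0529 to 0.0928) and without the filter (0.061). TRMT1, which makes dimethylguanosine, averaged 36.2 ± 4.27 RPKM in depleted, 36 ± 2.13 in repleted and 34 ± 1.86 in full medium, and its paralog TRMT1L 17.9 ± 2.35 RPKM in depleted, 16 ± 0.876 in repleted and 18.1 ± 1.3 in full medium. TRMT5, which methylates the guanosine beside the anticodon, averaged 14.3 ± 0.361 RPKM in depleted, 13.6 ± 1.22 in repleted and 14.3 ± 0.753 in full medium. These 3 did not pass, although TRMT1 was called without depleted replicate 3 (limma adjusted p = 0.0417) and TRMT1L was called higher against repleted medium without depleted replicate 1 (limma adjusted p = 0.0251).

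**Figure D3:**
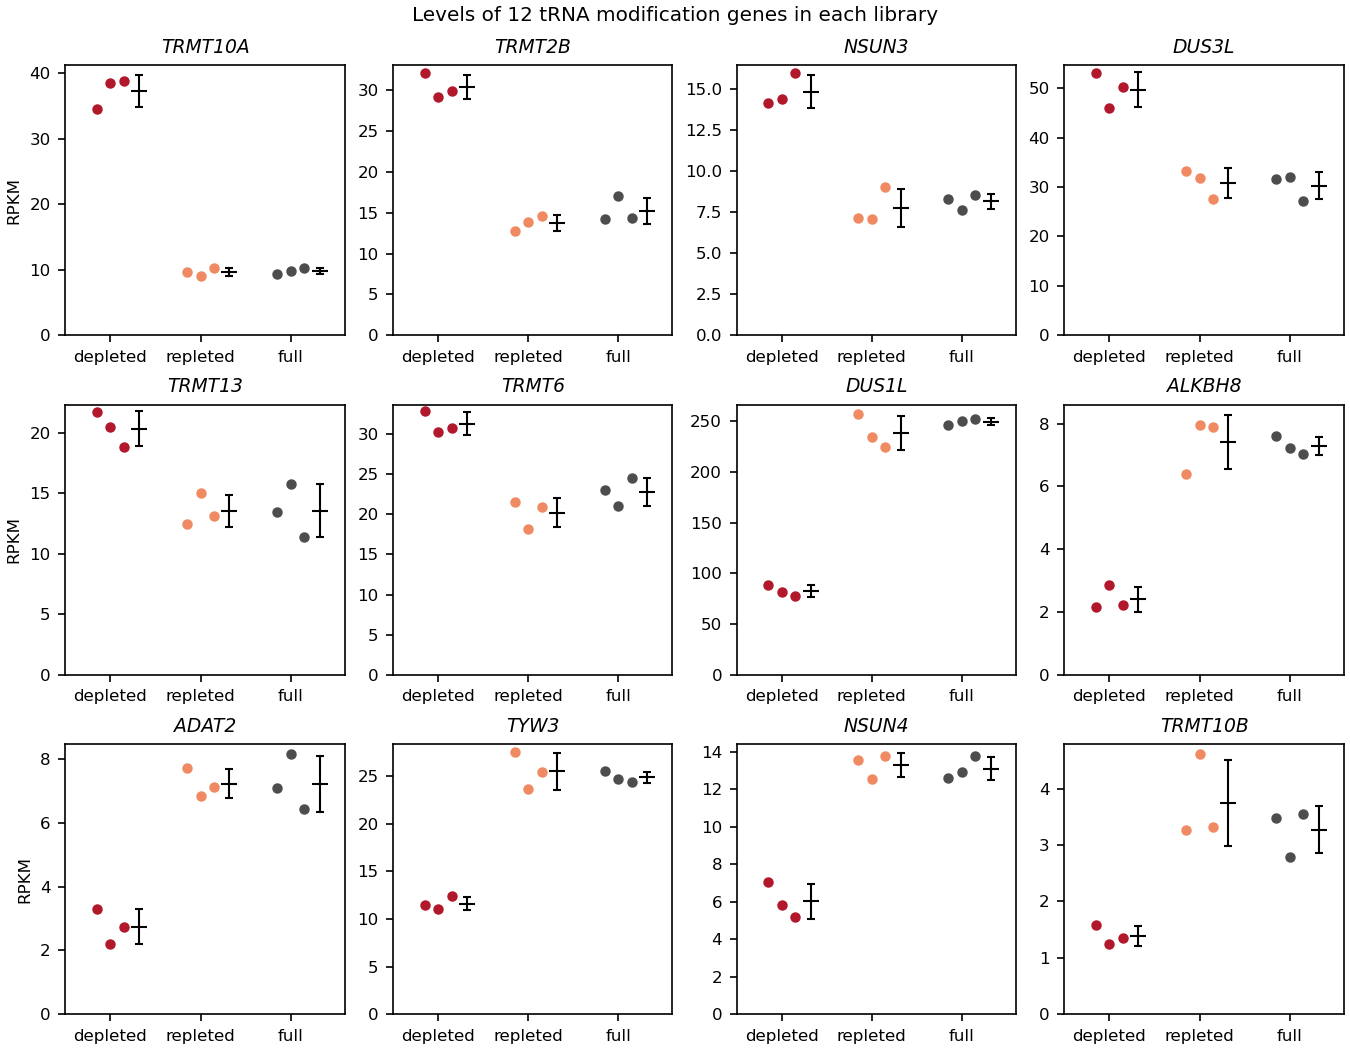
RPKM of 12 members in each library (y axes start at 0 and differ), with depleted, repleted and full libraries from left to right. Points are libraries and the bars beside them the mean ± SD of 3. The members shown were chosen for large called changes with no overlap of depleted and full libraries, so that separation was set by the choice. In every panel the depleted libraries lie apart from the other 6, such as TRMT10A at 34.5 to 38.8 against 8.98 to 10.3 RPKM.

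Of the NSUN enzymes, which make methylcytosine, all 5 tested members were called, 3 higher and 2 lower, where 29.8% of all genes were called higher and 31.2% lower. NSUN3 (ENSG00000178694), which methylates the wobble base of the mitochondrial methionine tRNA, had 14.2, 14.4 and 16 RPKM in depleted, 7.13, 7.07 and 9.07 in repleted and 8.29, 7.64 and 8.56 in full libraries. Every depleted library was above the others, and the mean was 1.82-fold that of full medium (log2 0.79, SE 0.1, limma adjusted p = 7.9e-05). NSUN4 (ENSG00000117481), which methylates mitochondrial ribosomal RNA and not tRNA, had 7.05, 5.82 and 5.17 RPKM in depleted, 13.6, 12.6 and 13.8 in repleted and 12.6, 12.9 and 13.8 in full libraries. It fell 2.18-fold against full medium (log2 -1.02, SE 0.1, limma adjusted p = 1.36e-05). NSUN3 thus rose and NSUN4 fell, and a difference between enzymes of tRNA and of ribosomal RNA was not tested. Of the members below, NSUN2 of tRNAs was called lower, and NSUN6 of tRNAs and NSUN5 of ribosomal RNA were called higher. NSUN2, the methylcytosine enzyme of many cytosolic tRNAs, averaged 82.7 ± 1.7 RPKM in depleted, 93.2 ± 1.54 in repleted and 90.5 ± 2.04 in full medium, a small fall (log2 -0.13, limma adjusted p = 0.00626). NSUN5, which acts on cytosolic ribosomal RNA, averaged 36.2 ± 1.1 RPKM in depleted, 31 ± 1.87 in repleted and 31.3 ± 0.28 in full medium (log2 0.2, limma adjusted p = 0.00568). Its value is uncertain, since reads could be split with its pseudogenes NSUN5P1 (18.8 RPKM in depleted against 14.1 in full medium) and NSUN5P2 (13.5 against 10.2). NSUN6, which acts at the acceptor end, averaged 8.11 ± 0.613 RPKM in depleted, 6.37 ± 0.477 in repleted and 6.74 ± 0.647 in full medium. Its rise (log2 0.24, limma adjusted p = 0.0449) was lost without the filter (0.0883), with only the 6 libraries compared (0.0542) and without depleted replicates 1 or 2, repleted replicate 1, or full replicates 2 or 3 (0.0566 to 0.144), and against repleted medium without depleted replicate 1 (0.0558) or repleted replicate 2 (0.0543).

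**Figure D4:**
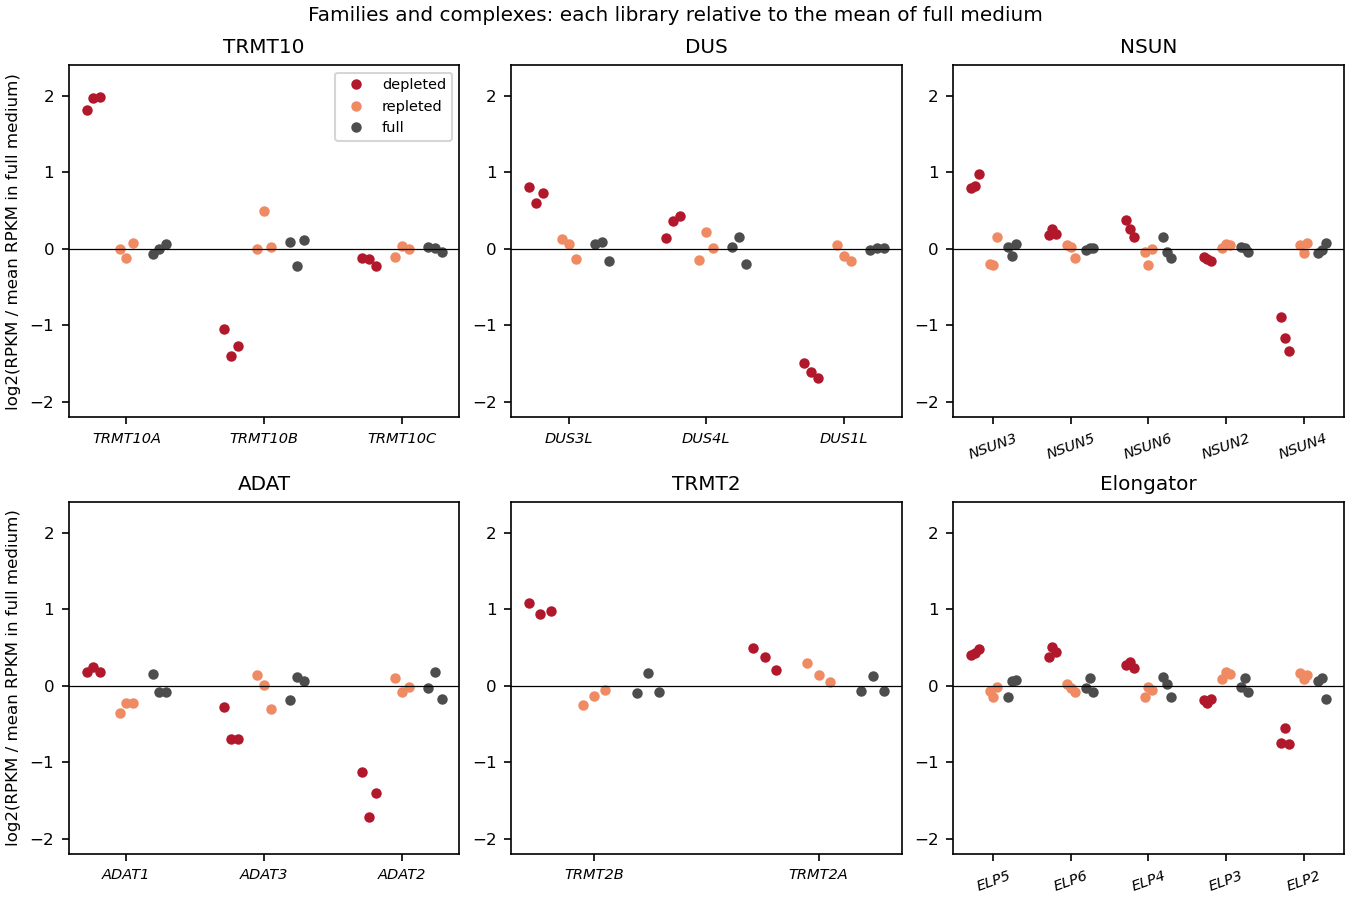
Each library's RPKM relative to the mean of full medium (y axis, log2 ratio with no pseudocount) for 6 families or complexes, in the order depleted, repleted and full. TRMT10A lies far above TRMT10B, DUS3L above DUS1L and NSUN3 above NSUN4 in depleted libraries, while the repleted libraries lie around the full ones.

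Of the enzymes of the wobble uridine, 4 of the 9 described here were called higher and 5 lower in depleted against full medium, where 29.8% of all genes were called higher and 31.2% lower. ALKBH8 (ENSG00000137760), which carries out the last methylation of this uridine, had 2.15, 2.87 and 2.21 RPKM in depleted, 6.41, 7.96 and 7.88 in repleted and 7.6, 7.24 and 7.03 in full libraries. The depleted libraries were all below the rest, 3.02-fold lower than full (log2 -1.29, SE 0.11, limma adjusted p = 6.69e-06) and 3.08-fold lower than repleted medium. The thiolation pair CTU1 and CTU2, which adds sulfur to cytosolic wobble uridines, fell too. CTU1 averaged 8.95 ± 1.42 RPKM in depleted, 14 ± 1.79 in repleted and 12.7 ± 0.571 in full medium (log2 -0.47 against full, limma adjusted p = 0.00553), and CTU2 17.5 ± 0.637 RPKM in depleted, 20.6 ± 1.79 in repleted and 21.1 ± 0.974 in full medium (log2 -0.26, limma adjusted p = 0.00884). The call of CTU2 against repleted medium (limma adjusted p = 0.0177) was lost without depleted replicate 2 (0.0623) or repleted replicates 1 (0.0626) or 2 (0.0608). TRMU, which thiolates mitochondrial tRNAs, averaged 57.5 ± 1.85 RPKM in depleted, 45.2 ± 2.69 in repleted and 44.6 ± 0.678 in full medium, a rise against full medium (log2 0.36, limma adjusted p = 0.000155).

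The subunits described here of Elongator, the complex that starts the modification of the wobble uridine, did not move together. ELP2, a subunit of the core subcomplex, had 31.6, 36.1 and 31.2 RPKM in depleted, 59.1, 56.2 and 58.4 in repleted and 55.4, 56.5 and 46.9 in full libraries. It fell 1.61-fold against full medium (log2 -0.67, SE 0.08, limma adjusted p = 5.71e-05) and 1.76-fold against repleted medium, with no overlap. ELP3, the catalytic subunit with an iron-sulfur cluster, had 12.7 ± 0.262 RPKM in depleted, 16.1 ± 0.588 in repleted and 14.6 ± 0.974 in full medium. Its fall against full medium (log2 -0.18, limma adjusted p = 0.0257) was lost with median centring (0.079) and without depleted replicates 1 (0.0553) or 2 (0.0751) or full replicate 2 (0.0994), while that against repleted medium was -0.31 (limma adjusted p = 0.00139). The accessory subunits ELP4, ELP5 and ELP6 rose. ELP5 had 112, 114 and 118 RPKM in depleted, 81, 76.9 and 84 in repleted and 76.9, 88.6 and 89.4 in full libraries (log2 0.43 against full, limma adjusted p = 0.00017). ELP6 had 62.9, 68.9 and 66.1 RPKM in depleted, 49.5, 47.7 and 46 in repleted and 47.7, 52.3 and 45.9 in full libraries (log2 0.43, limma adjusted p = 0.000119). The depleted libraries of both were above all others, and CTDNEP1, which overlaps 10.6% of the exonic bases of ELP5 on the other strand, averaged 87.1 RPKM in depleted and 65.6 in full medium. The part of CTDNEP1 was not tested. ELP4 averaged 15.7 ± 0.431 RPKM in depleted, 12.4 ± 0.54 in repleted and 13 ± 1.16 in full medium (log2 0.25 against full, limma adjusted p = 0.0105), and 19.2% of its exonic bases overlap PAX6 on the other strand, whose means were 18.5 RPKM in depleted and 18.6 in full medium.

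The adenosine deaminases, a family of zinc-binding enzymes, did not move together. ADAT2 (ENSG00000189007), the catalytic subunit that converts the wobble adenosine to inosine, had 3.31, 2.21 and 2.73 RPKM in depleted, 7.74, 6.84 and 7.14 in repleted and 7.1, 8.18 and 6.43 in full libraries. It fell 2.63-fold against full medium (log2 -1.14, SE 0.12, limma adjusted p = 3.31e-05) and likewise 2.63-fold against repleted medium. ADAT3 (ENSG00000213638), its non-catalytic partner, had 6.18, 4.62 and 4.63 RPKM in depleted, 8.25, 7.54 and 6.07 in repleted and 6.6, 8.1 and 7.81 in full libraries. All depleted libraries of ADAT3 were below the full ones but overlapped the repleted ones. It fell by 0.47 on the log2 scale against full medium (SE 0.13, limma adjusted p = 0.0121) and by 0.43 on that scale against repleted medium (limma adjusted p = 0.0189). The second call was lost after quantile normalization (0.0611) and without depleted replicates 2 (0.0659) or 3 (0.0646) or repleted replicates 1 (0.0691) or 2 (0.055). On the same strand, 35.4% of the exonic bases of ADAT3 overlap SCAMP4, which averaged 31.5 RPKM in depleted, 51.3 in repleted and 50.6 in full medium, and its part in the ADAT3 values was not tested.

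ADAT1 (ENSG00000065457), which acts on the adenosine beside the anticodon of alanine tRNA, went the other way, with 21.7, 22.7 and 21.7 RPKM in depleted, 15, 16.3 and 16.3 in repleted and 21.3, 18.1 and 18.1 in full libraries. It was 1.39-fold higher in depleted than in repleted medium (log2 0.45, SE 0.07, limma adjusted p = 0.000341). Its log2 change of 0.2 against full medium (limma adjusted p = 0.0317) was lost with the replicate block (0.0566), without the filter (0.062) and without depleted replicates 1 (0.0581), 2 (0.0932) or 3 (0.0584) or full replicates 2 (0.108) or 3 (0.106). Repleted libraries were all below full ones (log2 -0.25, limma adjusted p = 0.465).

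The queuosine transferase, which also binds zinc, did not pass in any comparison. QTRT1 (ENSG00000213339), the catalytic subunit, had 22.1, 19.3 and 17.5 RPKM in depleted, 27.7, 22.6 and 18.4 in repleted and 21.4, 23.2 and 20.8 in full libraries (log2 -0.15 against full, 95% interval -0.45 to 0.15, limma adjusted p = 0.36). Without repleted replicate 3 it was called lower against repleted medium (limma adjusted p = 0.0292, and 0.217 with all libraries). QTRTD1 (ENSG00000151576), its partner, had 27, 26 and 32.6 RPKM in depleted, 24.3, 28.5 and 26.7 in repleted and 34.7, 27.1 and 23.2 in full libraries (log2 0.02, 95% interval -0.29 to 0.33, limma adjusted p = 0.902). The spread within groups was wide, and the intervals do not exclude modest changes.

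Of 5 pseudouridine synthases, 3 were called lower, 1 higher and 1 did not pass, where 31.2% of all genes were called lower and 29.8% higher, and the calls of PUS1 and PUS7L depended on the setting. PUS7, which acts on several cytosolic tRNAs and on mRNA, had 7.42, 6.66 and 6.33 RPKM in depleted, 12, 13 and 13.2 in repleted and 12, 12.7 and 12.5 in full libraries. It fell 1.83-fold against full medium (log2 -0.78, SE 0.07, limma adjusted p = 9.67e-06), with no overlap. PUS10, which acts on the T arm, averaged 2 ± 0.182 RPKM in depleted, 3.71 ± 0.555 in repleted and 3.39 ± 0.811 in full medium and fell (log2 -0.54 against full, limma adjusted p = 0.0103). Of its exonic bases 3.83% overlap PEX13 on the other strand. PEX13 averaged 5.35 RPKM in depleted, 13.1 in repleted and 12.8 in full medium, and its part in the PUS10 values was not tested. PUS1, which serves nucleus and mitochondria, had 26.4 ± 1.49 RPKM in depleted, 37.3 ± 4.14 in repleted and 31.7 ± 1.89 in full medium. It fell against repleted medium (log2 -0.48, limma adjusted p = 0.000722), while the fall against full medium (log2 -0.25, limma adjusted p = 0.0228) was lost without the filter (0.0558) and without depleted replicates 2 (0.0797) or 3 (0.0508) or full replicate 3 (0.0814). PUS7L, the paralog of PUS7, averaged 10.6 ± 0.796 RPKM in depleted, 7.54 ± 0.406 in repleted and 8.69 ± 0.771 in full medium (log2 0.26 against full, limma adjusted p = 0.0219), lost without depleted replicates 2 or 3 or full replicates 1 or 2 (0.0608 to 0.0814), and it rose against repleted medium (log2 0.44, limma adjusted p = 0.00127). PUS3, which acts beside the anticodon, averaged 9.35 ± 1.17 RPKM in depleted, 9.55 ± 0.588 in repleted and 8.9 ± 1.2 in full medium (log2 0.06 against full, limma adjusted p = 0.626).

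The dihydrouridine synthases, which reduce uridines of the D loop and other loops, went in opposite directions. DUS1L (ENSG00000169718) was the most highly expressed member in full medium and had 88.6, 81.7 and 77.1 RPKM in depleted, 257, 234 and 224 in repleted and 246, 251 and 252 in full libraries. The depleted libraries were all far below the rest, 3.03-fold lower than full (log2 -1.59, SE 0.06, limma adjusted p = 3.72e-08) and 2.89-fold lower than repleted medium. DUS3L (ENSG00000141994) had 53.1, 45.9 and 50.2 RPKM in depleted, 33.2, 31.7 and 27.5 in repleted and 31.6, 32.1 and 27.1 in full libraries, 1.64-fold higher than in full medium (log2 0.7, SE 0.09, limma adjusted p = 9.94e-05). DUS4L averaged 9.92 ± 1.02 RPKM in depleted, 8.17 ± 1.02 in repleted and 7.98 ± 0.99 in full medium (log2 0.28 against full, limma adjusted p = 0.0553). On the other strand COG5, at 20.6 RPKM in depleted and 12.6 in full medium, overlaps 10.2% of its exonic bases, and its part was not tested. DUS4L was called with median centring (0.0319), quantile normalization (0.0279), the replicate block (0.0407) or without any 1 of 4 libraries (depleted replicate 1, repleted replicates 1 or 2, full replicate 2; 0.0316 to 0.0499). Against repleted medium it was not called (limma adjusted p = 0.0813), but was with median centring (0.0448), quantile normalization (0.0421), and without depleted replicate 1 (0.044) or repleted replicate 2 (0.0383).

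Wybutosine, the bulky base beside the anticodon of phenylalanine tRNA, is built in steps. TYW3 (ENSG00000162623), a later methyltransferase, had 11.4, 11 and 12.4 RPKM in depleted, 27.5, 23.6 and 25.4 in repleted and 25.5, 24.7 and 24.4 in full libraries. It fell 2.14-fold against full medium (log2 -1.04, SE 0.07, limma adjusted p = 9.57e-07) and 2.2-fold against repleted medium, with no overlap. Of its exonic bases 5.57% overlap CRYZ on the other strand, which averaged 17.6 RPKM in depleted and 26.2 in full medium. TYW1, the iron-sulfur enzyme of an early step, averaged 10.3 ± 0.189 RPKM in depleted, 9.59 ± 1.38 in repleted and 9.67 ± 1.01 in full medium (log2 0.08 against full, 95% interval -0.15 to 0.31, limma adjusted p = 0.513). SBDS overlaps 5.35% of the exonic bases of TYW1 on the other strand. It averaged 82.8 RPKM in depleted and 58.2 in full medium, and its part in the TYW1 values was not tested. TRMT12, which precedes TYW3, had 6.32 ± 0.662 RPKM in depleted, 8.43 ± 0.226 in repleted and 7.1 ± 0.515 in full medium, called lower against repleted medium (log2 -0.37, limma adjusted p = 0.00384) and not against full (0.154). TYW5, the hydroxylase, averaged 3.35 ± 0.116 RPKM in depleted, 3.78 ± 0.682 in repleted and 4.25 ± 0.411 in full medium (log2 -0.27 against full, limma adjusted p = 0.0727), called with only the 6 libraries compared (0.0421) or without repleted replicates 1 (0.0456) or 2 (0.0453). ALKBH1, which removes methyl groups from tRNA adenosines, averaged 12.9 ± 0.707 RPKM in depleted, 11.3 ± 0.586 in repleted and 10.7 ± 1.17 in full medium (log2 0.24 against full, limma adjusted p = 0.0279), lost without the filter (0.0579) and without depleted replicates 1 (0.0936) or 3 (0.0505) or full replicate 3 (0.0929). Against repleted medium it was not called (limma adjusted p = 0.0971), but was with median centring (0.0329) and without full replicate 3 (0.0475).

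Other tRNA modification genes, outside the family rule, were read off the same fit. Of 44 tested, 14 were called higher and 17 lower in depleted against full medium, against 29.8% and 31.2% of all genes, and the median log2 change was 0.03. GTPBP3, which builds a modified wobble uridine of mitochondrial tRNAs, had 16.2, 13.7 and 14.7 RPKM in depleted, 90.3, 84.6 and 81.4 in repleted and 77.5, 81.2 and 84.3 in full libraries (log2 -2.37, limma adjusted p = 6.98e-09). MTO1, its partner in that reaction, rose, with 22.9 ± 1.77 RPKM in depleted against 14.6 ± 1.01 in full medium (log2 0.62, limma adjusted p = 9.79e-05). The genes named here had the largest called rises and falls of the list, a choice that favours opposite pairs. GTPBP3 and MTO1 moved oppositely, as did OSGEP and TPRKB of the complex that makes threonylcarbamoyladenosine beside the anticodon. There OSGEP, the catalytic subunit, had 11.2, 9.75 and 9.06 RPKM in depleted, 49.8, 44.8 and 47 in repleted and 41.9, 45.8 and 46.1 in full libraries (log2 -2.06, limma adjusted p = 3.64e-08). TPRKB, an accessory subunit, rose to 105 ± 2.97 RPKM in depleted against 56.4 ± 4.07 in full medium (log2 0.89, limma adjusted p = 1.26e-06), and YRDC, which makes the activated precursor, to 60.3 ± 1.97 against 38.4 ± 0.281 RPKM (log2 0.64, limma adjusted p = 7.4e-07). FTSJ1, a ribose methyltransferase of the anticodon loop, fell to 11.5 ± 0.122 RPKM in depleted against 35.5 ± 1.1 in full medium (log2 -1.55, limma adjusted p = 5.45e-07). In repleted against full medium limma called 0 of the 44, against 0.0317% of all genes. At an unadjusted p under 0.05 there were 0 of the 44, against 7.76% of all genes.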

How the data were processed

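The members and lists were chosen with earlier results of these data known. Per the labels' protocols, mRNA was enriched by its polyA tail, copied to cDNA with TruSeq reagents and read from one end. Per the file headers, the authors deposited log2 values of RPKM, and the values fit log2(RPKM + 1): the lowest is 0 and each RPKM is a multiple of 0.01. Per the submitters' processing notes, bedtools 2.25.0.3, BWA 0.7.12-r1039, RSEM 1.2.6 and Bowtie 1.0.1 were used with builds hg19 and GRCh37, and their roles and the strand setting are not given in the sources used here. The table held 57766 genes, 20320 blank rows and 0 columns of unknown sample. The effective gene lengths deposited by the authors weighted the RPKM sums.

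The 15774 genes that reached 1 RPKM in 3 or more of the 9 libraries were fitted with limma 3.58.1 in R 4.3.3, 1 mean per group, a variance trend and no block, with Benjamini-Hochberg adjustment over all genes of each comparison. The pseudocount of 1 understates changes of low genes. Values per library were given for up to 6 called members each way with the largest changes and no overlap, for zinc-binding enzymes, and for any called in repleted against full medium. ELP2, ELP5, ELP6 and PUS7 were added after their values were seen. One member counted in the totals is not reported here by name. Motifs were chosen with values known. Alternatives were another pseudocount, filters, scalings, a stricter threshold, a replicate block and leaving out each library. Exon overlaps came from GENCODE on GRCh38, whose coordinates were not joined to the values. Figures used matplotlib 3.10.9 in Python 3.11.15.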

Additional observations from a re-analysis of the deposited data

How the results depend on the processing

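Of the 35 members called in depleted against full medium, 23 kept the call under all 17 alternatives, and of the 34 called against repleted medium 29 did. None was called in the opposite direction under any of them. At the stricter threshold of 0.01 the members called higher in depleted against full medium numbered 12, against 19 at 0.05. Among all 15774 tested genes those called higher numbered 3631, against 4693 at 0.05. The members called lower stayed within 1.5 times the reported count. Leaving out each library in turn gave 15 to 20 members higher and 14 to 17 lower in depleted against full medium, and 16 to 18 higher and 14 to 17 lower against repleted medium. Over all tested genes the same gave 4252 to 4758 higher and 4520 to 4965 lower against full medium. Against repleted medium it gave 4253 to 4627 higher and 4512 to 4885 lower. With the replicate number as a block, which the labels do not say marks a shared batch (deviations from group means correlated at -0.0144 to 0.0726 between libraries of one number and -0.0609 to 0.0416 between others), the counts of members moved by less than 1.5 times, and in depleted against full medium 1 call was lost (ADAT1, log2 0.2, limma adjusted p = 0.0566) and 1 gained (DUS4L, 0.0407), while against repleted medium 2 were gained (TRMT112, 0.0488, and TRMT2A, 0.0484). For all genes in repleted against full medium, 5 were called lower and 0 higher. That count of lower genes was 3 with a pseudocount of 0.1, 2 without the filter, 2 with only the 6 libraries compared, 2 with the replicate block and 1 at the threshold of 0.01, and 1 to 6 with a library left out (0 to 3 higher). Apart from leaving out each library, the alternatives gave 1 to 7 lower genes, so the count did not only fall. The causes were not tested. The median log2 change of all genes in depleted against full medium was 0.047 with median centring and 0.0386 with quantile normalization. Depth is known only as an estimate, and 3 libraries a group limit the precision.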
